A study of Mus musculus with 8 samples.

Results

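The vesicular monoamine transporter gene Slc18a2 was followed together with 9 genes of histamine and serotonin synthesis and of mast cells in the oviducts of adult mice given genistein (Gen) or corn oil as newborns. The members were Slc18a2, Hdc, Tph1, Cpa3, Cma1, Mcpt1, Mcpt2, Mcpt4, Kit and Fcer1a, and every probe that carried one of these names was taken, which gave 14 of the 41174 noncontrol probes. The set was built around the difference in Slc18a2 between the groups, so the differences of the members between Gen-treated mice and controls are given as values with no test. CD-1 females were injected under the skin on PND1–5 with corn oil (control, n = 4) or with Gen at 50 mg/kg/day (n = 4), and Gen is a plant isoflavone that binds estrogen receptors. At 6–8 weeks of age all 8 mice were superovulated and mated, and the oviducts were taken on GD2 (48 hr after hCG) and freed of embryos. Each replicate was oviduct RNA labelled with Cy3 on 1 Agilent mouse array. Each is called 1 mouse here, which the study's methods state for adult PCR samples and not in their array section. All values are scaled array signals, which can be compared between mice for a probe but not between probes.

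Mast cells store histamine and proteases in granules and release them when IgE bound to their surface receptor meets antigen. Histamine is made from histidine by the enzyme that Hdc encodes, serotonin synthesis starts with the enzyme that Tph1 encodes, and the transporter that Slc18a2 encodes (VMAT2) loads both amines, and catecholamines, into granules or vesicles. Slc18a2 is therefore known from mast cells, but also from platelets, monoamine neurons and endocrine cells, and Hdc is known from the epithelium of the reproductive tract as well as from mast cells. Granule proteases are better markers of the cell: Cpa3, Cma1 and Mcpt4 belong to connective tissue mast cells, and Mcpt1 and Mcpt2 to mucosal mast cells. In whole oviduct RNA, fewer cells of a type and less RNA per cell cannot be told apart.

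The bases just upstream of the start of Slc18a2, Hdc and the 3 measured proteases are shown because their relations across mice are compared further on. RefSeq windows (GRCm38.p6) were found for 9 of the 10 members. Each window below holds the 250 bases before the start, written 5′ to 3′ on the strand of the gene. Capitals mark the TATA box (TATAAA, strand of the gene) and the GATA motif (AGATAA, with A or T as its first letter and A or G as its last, either strand). The windows are chr19:59260628-59260877 (+) for Slc18a2, chr2:126618679-126618928 (−) for Hdc, chr3:20242182-20242431 (−) for Cpa3, chr14:55944676-55944925 (−) for Cma1 and chr14:56062311-56062560 (−) for Mcpt4.
Slc18a2: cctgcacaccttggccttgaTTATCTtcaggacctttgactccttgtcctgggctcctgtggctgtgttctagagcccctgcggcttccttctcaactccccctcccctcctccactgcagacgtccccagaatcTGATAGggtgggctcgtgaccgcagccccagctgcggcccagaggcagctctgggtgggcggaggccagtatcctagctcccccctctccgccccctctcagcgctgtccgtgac
Hdc: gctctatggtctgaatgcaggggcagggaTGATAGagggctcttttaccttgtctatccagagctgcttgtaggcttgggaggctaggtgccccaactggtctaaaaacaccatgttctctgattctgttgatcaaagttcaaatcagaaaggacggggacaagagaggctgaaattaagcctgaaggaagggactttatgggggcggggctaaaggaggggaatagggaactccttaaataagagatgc
Cpa3: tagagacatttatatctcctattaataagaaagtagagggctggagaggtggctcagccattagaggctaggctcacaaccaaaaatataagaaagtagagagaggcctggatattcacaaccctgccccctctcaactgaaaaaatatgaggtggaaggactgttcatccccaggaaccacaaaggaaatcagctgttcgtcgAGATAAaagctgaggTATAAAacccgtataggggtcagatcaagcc
Cma1: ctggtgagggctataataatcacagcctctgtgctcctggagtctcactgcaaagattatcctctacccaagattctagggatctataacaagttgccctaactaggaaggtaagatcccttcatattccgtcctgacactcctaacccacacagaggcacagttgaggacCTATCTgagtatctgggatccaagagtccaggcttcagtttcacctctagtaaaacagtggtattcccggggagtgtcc
Mcpt4: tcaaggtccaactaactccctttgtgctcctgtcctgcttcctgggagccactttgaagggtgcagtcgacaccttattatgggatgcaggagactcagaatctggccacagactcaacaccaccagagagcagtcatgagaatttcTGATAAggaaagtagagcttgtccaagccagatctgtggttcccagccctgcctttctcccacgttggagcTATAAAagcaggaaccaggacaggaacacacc
The GATA motif, which the factors GATA1 and GATA2 of the mast cell lineage can bind, was in all 5 windows and in 26.5% of the 32851 mouse windows of the same length. The TATA box was in the Cpa3 window, from 31 to 26 bases before the start, and in the Mcpt4 window, from 32 to 27 bases before it, and in 7.59% of all windows. In Cpa3 a GATA motif lay just before the TATA box, from 46 to 41 bases before the start. The E-box words CATGTG and CACGTG (17.6% of all windows) and the cAMP response element TGACGTCA (1.55%) were not in these 5 windows on either strand. These matches describe letters only. The windows of the other members were not examined one by one, so nothing is read from these 5 windows about the set.

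All 4 controls were on 1 slide and all 4 Gen arrays on another, so treatment and slide cannot be told apart for any difference below. Between 25391 and 28949 probes were well above background on the control arrays and between 29539 and 31486 on the Gen arrays. Probes not above background on any array (n = 7855) were lower in Gen-treated mice in 96.4% of cases, with a median log2 difference of −1.16, so dim probes carried a shift of their own. The oviduct markers were bright in both groups. Ovgp1, the oviductal glycoprotein, ran from 463135 to 601738 among controls and from 411755 to 654968 among Gen-treated mice, with 1 array saturated.

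Of the 14 member probes, 11, from 8 genes, passed the scanner's mark for signal well above background on each of the 4 arrays of a group, and are called measured here. The probes for Mcpt1, Mcpt2 and the second Tph1 probe were not well above background on any of the 8 arrays, so no fold is given for them. Among the 11 measured probes the groups did not overlap for 3, both Slc18a2 probes (higher in Gen) and the Hdc probe (lower in Gen). Over all 28966 measured probes, 12.5% did not overlap, and since the set was chosen on this contrast nothing is read from the member count. The median log2 difference of the 11 probes was −0.17, and that of all measured probes was 0.02. The 11 include both Slc18a2 probes, so nothing is read from these medians either.

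Slc18a2 signal was 162, 44.0, 209 and 40.0 in controls 1 to 4 and 1594, 2327, 422 and 286 in Gen-treated mice 1 to 4. Every Gen-treated mouse was above every control. The mice of a group also differed widely, by 5.22-fold between the lowest and highest control and by 8.13-fold among Gen-treated mice. The group means were 87.9 and 818, a log2 difference of 3.22 (SE, 0.83) or 9.31-fold. This probe lies at chr19:59217832-59217891 (mm7, + strand) and was well above background on all 8 arrays. The other Slc18a2 probe, at chr19:59217576-59217636, gave 147, 32.7, 142 and 38.5 in controls and 1102, 1498, 295 and 214 in Gen-treated mice, a log2 difference of 2.99 (SE, 0.79) with no overlap. It was well above background on 3 of 4 control arrays. With group means removed, the probes followed each other across the 8 mice (r = 0.992), so the spread among mice of a group was seen by both probes.

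**Figure D1:**
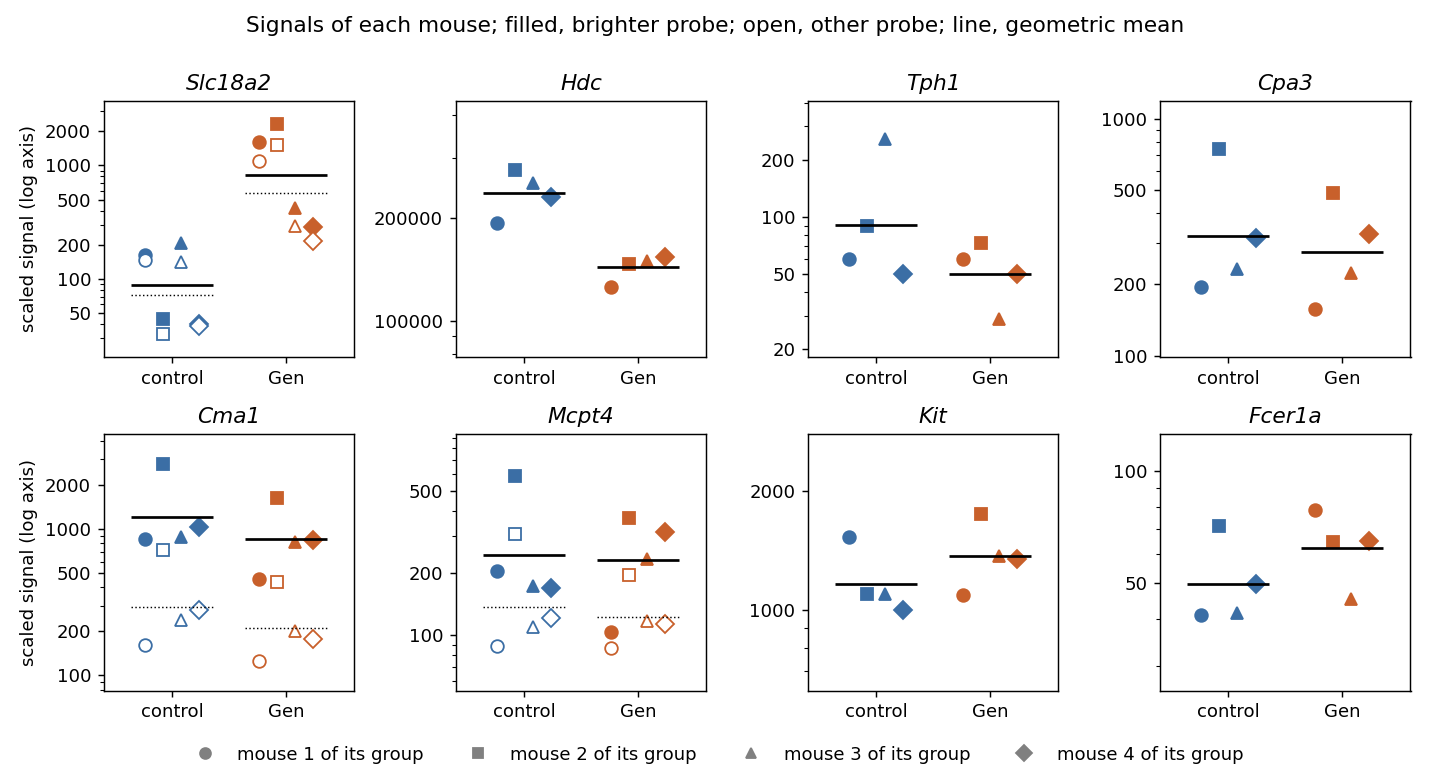
Scaled signal (log axis) of each mouse for the 8 members with a probe above background, controls in blue and Gen-treated mice in orange. Symbols give the mouse within its group, open symbols the second probe, and lines the geometric means. Slc18a2 of all Gen-treated mice lies above all controls and Hdc below, while Cpa3, Cma1 and Mcpt4 overlap and peak in control 2 and Gen 2.

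Hdc, the histamine-forming enzyme, went the other way from the transporter. Its signals were 193865, 275637, 252927 and 230752 in controls and 125158, 146225, 150014 and 153546 in Gen-treated mice. Every Gen-treated mouse was below every control, and the spread within a group was small, 1.42-fold among controls and 1.23-fold among Gen-treated mice. The log2 difference was −0.72 (SE, 0.14), or 1.65-fold lower. The probe, at chr2:126334633-126334692 (mm7, − strand), was not saturated on any array. Without scaling between arrays the difference was −0.48 (SE, 0.29).

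Tph1, the first enzyme of peripheral serotonin synthesis, was at 60.3, 89.3, 257 and 49.9 in controls and 59.8, 73.1, 29.1 and 49.9 in Gen-treated mice. The groups overlapped, control 3 stood above the other 7 mice, and the log2 difference was −0.86 (SE, 0.53). Without control 3 it was −0.36 (SE, 0.35).

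The granule proteases overlapped between the groups. Cpa3, mast cell carboxypeptidase, was at 194, 746, 231 and 314 in controls and 158, 486, 224 and 326 in Gen-treated mice, with a log2 difference of −0.23 (SE, 0.49). The values of the groups interleaved, with control 2 highest of all and Gen 1 lowest.
Cma1, a chymase, gave 850, 2795, 882 and 1036 in controls and 456, 1643, 822 and 845 in Gen-treated mice on its brighter probe, a log2 difference of −0.51 (SE, 0.49). Its other probe gave −0.49 (SE, 0.52). The difference of the brighter probe was −0.11 without control 2, −0.22 without Gen 1 and −0.83 without Gen 2. Control 2 was again the highest mouse and Gen 1 the lowest on both probes.
Mcpt4, another chymase of connective tissue mast cells, was at 205, 586, 173 and 168 in controls and 103, 370, 233 and 317 in Gen-treated mice, a log2 difference of −0.08 (SE, 0.52). Its other probe gave −0.17 (SE, 0.41). On all 5 protease probes the highest control was control 2 and the highest Gen-treated mouse was Gen 2. The proteases on chromosome 14 are related in sequence, and how far a probe also catches its paralogs was not tested.

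Both receptor genes overlapped between the groups. Kit, the receptor for stem cell factor, is needed by mast cells and is also carried by the interstitial cells of Cajal that pace oviduct muscle. Its signals were 1538, 1098, 1097 and 1001 in controls and 1096, 1749, 1375 and 1351 in Gen-treated mice, a log2 difference of 0.24 (SE, 0.19). The Kit probe is printed 10 times on the array, and the SD of log2 signal between spots of an array was 0.03–0.08, against 0.27 between controls and 0.28 between Gen-treated mice. The spread among mice was thus larger than that among spots. Fcer1a, the IgE-binding chain of the mast cell receptor, was dim, at 41.1, 71.3, 41.7 and 49.7 in controls, of which 2 were well above background, and at 78.8, 64.6, 45.2 and 65.1 in Gen-treated mice, all above background. Its log2 difference was 0.33 (SE, 0.23).

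**Figure D2:**
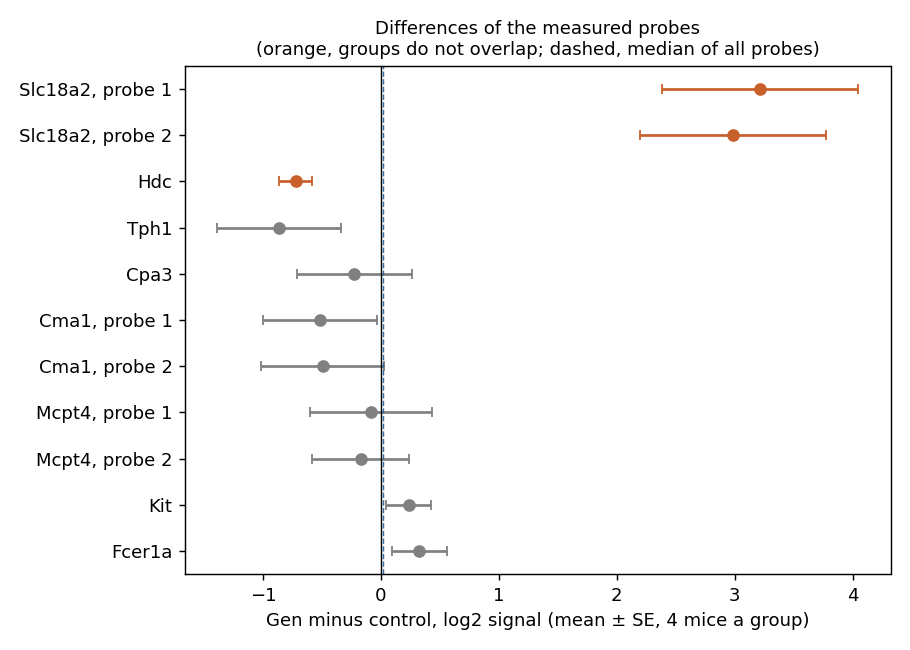
Gen minus control difference in log2 signal (x axis, ± SE, 4 mice a group) for the 11 measured member probes. Both Slc18a2 probes lie near 3 and Hdc at −0.72, and the other 8 probes lie between −0.86 and 0.33.

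Whether Slc18a2 moved with the mast cell genes was then asked within the groups, which does not use the difference that chose the set. For each gene the mean of its group was taken from each mouse's log2 signal, and the 8 deviations were related by Pearson's r and Spearman's rho, with exact two-sided permutation tests over the 576 orders within groups and Benjamini-Hochberg adjustment over 21 pairs of the 7 members measured on all 8 arrays. The smallest p this test can give is 0.00174.

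Of the 3 pairs of granule proteases, Cpa3 with Cma1 passed the adjustment and both pairs with Mcpt4 did not. Cpa3 and Cma1 gave r = 0.968 and rho = 0.976 (exact permutation p = 0.00174, adjusted p = 0.0365, n = 8), and r was 0.857 without control 2 and Gen 2, the mice farthest from the median. Mcpt4 and Cma1 gave r = 0.935 and rho = 0.905, with an exact permutation p of 0.0156 (Spearman, 0.0399) and an adjusted p of 0.109 (Spearman, 0.280). Mcpt4 and Cpa3 gave r = 0.904 and rho = 0.833 (exact permutation p = 0.0139, adjusted p = 0.109, and Spearman adjusted p = 0.280). Without the 2 mice farthest from the median these r were 0.880 and 0.710.

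Hdc had a positive r with each protease, and none of the 3 relations passed the adjustment. With Cpa3 it gave r = 0.728 and rho = 0.690, with Cma1 r = 0.679 and rho = 0.738, and with Mcpt4 r = 0.679 and rho = 0.643 (exact permutation p = 0.0833, 0.0990 and 0.128, adjusted p = 0.385 for each). The Spearman permutation p of these relations was 0.101, 0.0556 and 0.128, with adjusted p between 0.292 and 0.337. Without control 1 and Gen 1 the r of Hdc with Cpa3 was 0.478.

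For Slc18a2 none of its relations to the other members passed, and those with Hdc and the proteases were below 0. The mice above their group mean in Slc18a2 were control 1, control 3, Gen 1 and Gen 2, and of these only Gen 2 was above its group mean in Cpa3. Control 2, which had the highest protease signals of all 8 mice, had an Slc18a2 signal of 44.0. The r of Slc18a2 was −0.32 with Cpa3 (rho = −0.31), −0.21 with Cma1 (rho = −0.26), −0.34 with Mcpt4 (rho = −0.12) and −0.46 with Hdc (rho = −0.33). It was 0.37 with Kit (rho = 0.14) and 0.61 with Tph1 (rho = 0.67). The exact permutation p of these 6 relations lay between 0.120 and 0.587 (Spearman, 0.0903–0.809) and the adjusted p between 0.385 and 0.845 (Spearman, 0.333–0.984). Among the 24920 probes above background with a value on all 8 arrays, the 5th and 95th percentiles of r with Slc18a2 were −0.62 and 0.60. Without Gen 2 and Gen 4, the mice farthest from the median of Slc18a2, r was −0.69 with Cpa3, −0.68 with Cma1, −0.57 with Mcpt4 and −0.52 with Hdc. The Slc18a2 deviations fell into a high and a low set of 4 mice, with none between −0.95 and 0.88, so each r mainly compares the sets, and 4 mice are too few to relate within a set. Whether Slc18a2 and the proteases differ in their relations was not tested.

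**Figure D3:**
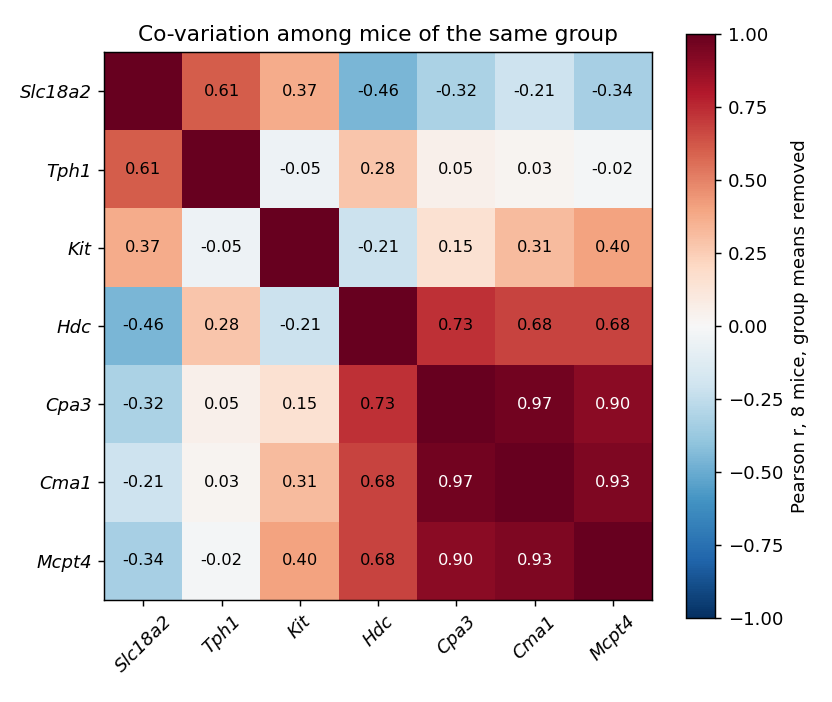
Pearson r between members across the 8 mice after the group means of log2 signal were removed (color scale from −1 to 1). Cpa3, Cma1 and Mcpt4 form a block at 0.90–0.97, with Hdc at 0.68–0.73 beside it, and Slc18a2 is between −0.46 and −0.21 with all 4.

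The genes closest to Slc18a2 were found by the same measure, as a description, over 22255 probes with a RefSeq gene symbol that were above background and unsaturated on all 8 arrays. The highest r were those of Akr1cl (0.981), Dtnbp1 (0.977), Acsbg1 (0.968), Miox (0.961) and Bzw1 (0.959), and the lowest those of Acpp (−0.969), Rab7b (−0.961), Necab2 (−0.955), Actr8 (−0.947) and Arhgef10 (−0.946). Akr1cl (141 in controls, 1774 in Gen-treated mice) and Acsbg1 (591 and 6474) also differed between the groups, by 3.66 (SE, 0.79) and 3.45 (SE, 0.77) on the log2 scale. Dtnbp1 and Bzw1 hardly varied within groups, with an SD of 0.11 each. No member was among these 10 genes.

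Of the genes in the marker lists, the 3 with the highest r to Slc18a2 came from the lists of steroid-making ovarian cells and of oocytes. Inha, the inhibin alpha subunit, had r = 0.941 with Slc18a2, higher than 99.96% of the 24920 probes, with or without a symbol, that were above background and had a value on all 8 arrays. Its signals were 1297, 384, 1149 and 593 in controls and 10141, 8248, 2687 and 1713 in Gen-treated mice. The same 4 mice, control 1, control 3, Gen 1 and Gen 2, were above their group means in Inha and in Slc18a2. Zp3, a protein of the oocyte coat, had r = 0.936, and its signals were 649, 111, 827 and 122 in controls and 1404, 4516, 855 and 641 in Gen-treated mice. Gdf9, an oocyte growth factor, had r = 0.890.

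The summed level of 15 marker lists was set against Slc18a2 in the same way. Since signals of different probes are added, a sum mostly follows its brightest genes, such as Gdf9 for oocytes, Hsd3b1 for steroidogenic cells and Gata2 for the other mast cell genes. The sum of the 6 measured oocyte genes gave r = 0.903 and rho = 0.786 (exact permutation p = 0.0208, adjusted p = 0.156 over 15 lists; Spearman, 0.0226 and 0.339), and r = 0.905 without Gen 2 and Gen 4. The sum of the 6 steroidogenic genes gave r = 0.832 and rho = 0.762 (exact permutation p = 0.0174, adjusted p = 0.156; Spearman, 0.0642 and 0.482), and r = 0.844 without those mice. Neither relation passed the adjustment. Both sums hold genes, described below, that were dim in controls and counted as measured only through the Gen-treated group. Nothing is concluded from these tests. Of the 6 steroidogenic genes, Cyp11a1, Hsd3b1 and Inha, above background on all 8 arrays, were higher in Gen-treated mice by limma (adjusted p = 0.0236–0.0319), and none of them passed when dim probes were left out before adjustment. Over all measured probes 5.02% passed by limma. Cyp17a1 and Star, also above background on all 8 arrays, did not pass. Cyp17a1 gave a log2 difference of −0.02 (SE, 0.28) and r = 0.14 with Slc18a2. Star gave 1.80 (SE, 0.64; limma adjusted p = 0.103) with overlap. Lhcgr was above background on all 4 Gen arrays and on 0 of 4 control arrays, so it was measured only through the group where it was high. Its call is not counted, and no group range is given for the sum that holds it. The oocyte genes Zp3 and Gdf9, above background on all 8 arrays, gave log2 differences of 2.22 (SE, 0.86; limma adjusted p = 0.131) and 2.83 (SE, 1.02; limma adjusted p = 0.107). The other 4 oocyte genes were above background on 1 or 2 of the 4 control arrays, so their control signals are partly background. No count, median or group range of the sum is given for the list. Hsd3b1, a steroid dehydrogenase, was at 2445, 1283, 18615 and 900 in controls and 88719, 93445, 21861 and 31371 in Gen-treated mice. Cyp11a1 was at 238, 354, 3903 and 271 in controls and 23785, 21029, 4444 and 8710 in Gen-treated mice. In both genes control 3 stood far above the other controls. The part of these cells in the Slc18a2 difference was not tested.

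No measured gene of the other cell types in which the transporter is known passed the test, which 5.02% of all measured probes passed. Of 7 platelet genes 6 were measured, none differed by limma (0 at an unadjusted p under 0.05, also by the methods' test, which takes each probe's own variance), and their sum was 4972–5899 in controls and 4554–7450 in Gen-treated mice (r with Slc18a2 = −0.06). Of 12 genes of sympathetic neurons and neuroendocrine cells 5 were measured and none passed adjustment (3 at an unadjusted p under 0.05 by limma, 3 by the methods' test). The catecholamine enzyme genes Th and Dbh were not measured, Th being above background on 2 Gen arrays only and Dbh on 3 arrays of each group. Chga, a protein of endocrine granules, was at 71.4, 88.2, 265 and 147 in controls and 261, 3006, 445 and 615 in Gen-treated mice, a log2 difference of 2.44 (SE, 0.75; limma adjusted p = 0.0651). Chgb, of the same list, was at 85.7–111 in controls and 144–1754 in Gen-treated mice, with no overlap (log2 difference 1.97; SE, 0.68; limma adjusted p = 0.0968). Gen 2 stood far above the other Gen-treated mice in Chga and Chgb. Within groups r with Slc18a2 was 0.75 for Syt1, 0.36 for Chga, 0.32 for Chgb, 0.05 for Prph and −0.04 for Stmn2. The sum of this list was 1989–2560 in controls and 2625–7909 in Gen-treated mice, with r = 0.49 with Slc18a2 and an adjusted p by exact permutation of 0.891.

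**Figure D4:**
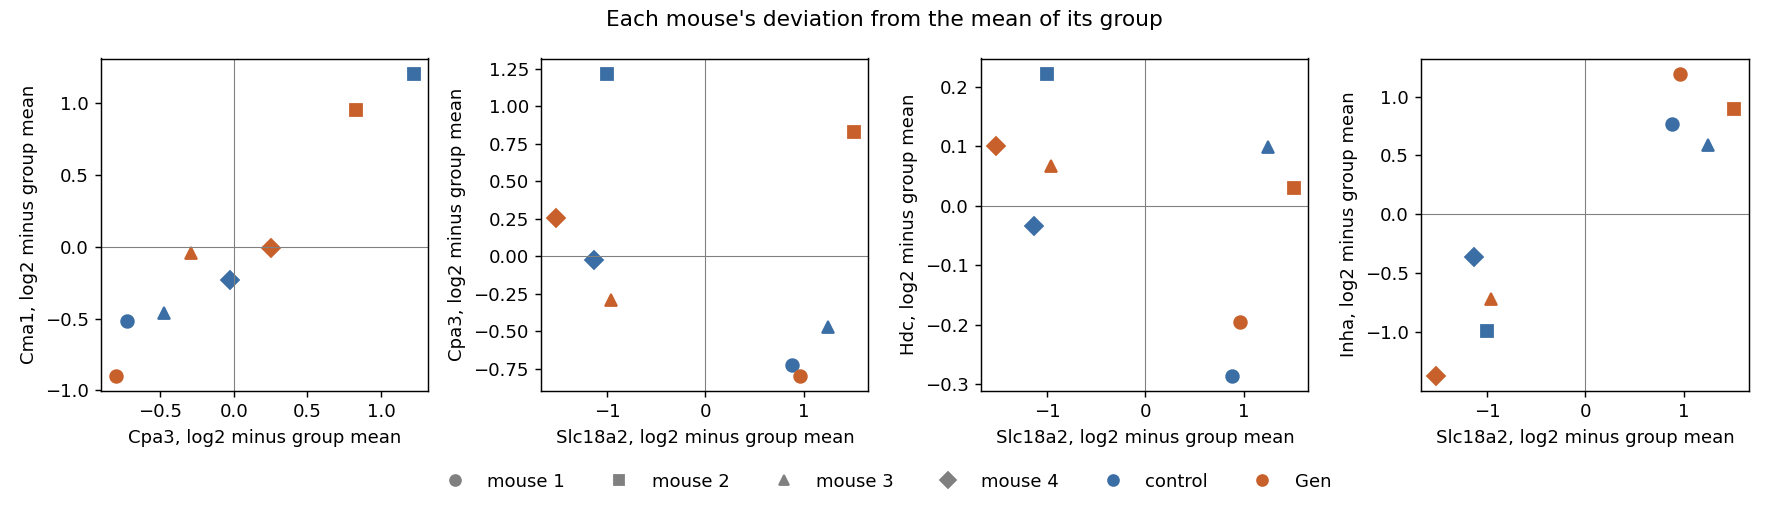
Deviation of each mouse from its group mean in log2 signal for 4 pairs of genes, with controls in blue, Gen-treated mice in orange and symbols for the mouse within its group. Cpa3 and Cma1 (r = 0.968) and Slc18a2 and Inha (r = 0.941) rise together, and Slc18a2 against Cpa3 (r = −0.32) or Hdc (r = −0.46) does not.

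Beyond the members, 23 further mast cell genes were examined, of which 15 were measured. By limma, 1 of the 15 was higher in Gen-treated mice at an adjusted p under 0.05 and 0 were lower (2 at an unadjusted p under 0.05, Rab27b and Gata2, by limma, and 2 by the methods' test). Over all measured probes 5.02% passed, or 1.11% when dim probes were left out before adjustment. The median log2 difference was 0.10. The gene that passed was Rab27b, a small GTPase that docks secretory granules and is not limited to mast cells, at 135, 121, 87.0 and 83.0 in controls and 254, 268, 236 and 318 in Gen-treated mice. The groups did not overlap, and the log2 difference was 1.36 (SE, 0.19; limma adjusted p = 0.0236). The other 2 Rab27b probes were above background on 1 array and on none, so the call rests on 1 probe. It was also made with dim probes left out, and the call was lost when Gen 1, Gen 2 or Gen 3 was left out.

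The brightest of the other mast cell genes did not pass on the probe that stands for each. Gata2, a factor of the mast cell lineage known also from tissue of the reproductive tract, was at 21865 in controls and 14971 in Gen-treated mice (log2 difference −0.55; SE, 0.20; limma adjusted p = 0.108), and its dimmer probe, also above background on all 8 arrays, gave −0.72 (SE, 0.18; limma adjusted p = 0.0289) with no overlap. Alox5ap and Srgn, of leukotriene synthesis and granule packing, gave −0.42 (SE, 0.22) and 0.20 (SE, 0.15), and Fcer1g, the signalling chain of Fc receptors, gave 0.46 (SE, 0.21). The tryptase gene Tpsb2 was at 99.998 in controls and 96.2 in Gen-treated mice. Of the defining mast cell markers Ms4a2, the beta chain of the IgE receptor, was not well above background on any array and the tryptase gene Tpsab1 on 1 Gen array only. The sum of the 15 genes was 61415–75577 in controls and 53662–65693 in Gen-treated mice.

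The other amine genes showed no called difference, where 5.02% of all measured probes were called. Of 21 genes of monoamine synthesis, transport and breakdown 15 were measured and 0 passed by limma (1 at an unadjusted p under 0.05, also 1 by the methods' test), with a median log2 difference of 0.03. The breakdown enzymes were bright and close between groups: Maoa gave 0.02 (SE, 0.12), Maob −0.08 (SE, 0.20) and Aoc1, which degrades histamine, −0.14 (SE, 0.23). Hnmt, the histamine methyltransferase, was at 7826 and 6373 (log2 difference −0.30; SE, 0.13; limma adjusted p = 0.176), and was singled out here after its values were seen. Slc18a1, the related vesicular transporter, was at 113 in controls and 130 in Gen-treated mice, a log2 difference of 0.20 (SE, 0.19).

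On the receiving side, 4 of 18 histamine and serotonin receptor genes were measured, and 1 was called. The share called over all measured probes was 5.02%, or 1.11% with dim probes left out. Hrh1, the H1 receptor, was at 251, 348, 429 and 490 in controls and 540, 643, 692 and 722 in Gen-treated mice, all 4 above all controls. Its log2 difference was 0.81 (SE, 0.22; limma adjusted p = 0.0384), and it did not pass when dim probes were left out first. The call was also lost when any array other than control 4 was left out. Hrh3 gave 0.22 (SE, 0.29), Htr2b 0.18 (SE, 0.19) and Htr5a −0.04 (SE, 0.31).

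Of 7 mast cell growth factor genes 4 were measured and 0 passed by limma (3 at an unadjusted p under 0.05 by limma, 2 by the methods' test). Kitl, the ligand of Kit, was at 2051 in controls and 2822 in Gen-treated mice, with no overlap (log2 difference 0.46; SE, 0.16; limma adjusted p = 0.0987), while its other probe, above background on 3 of 4 control arrays, gave −0.36 (SE, 0.20) with overlap. Il33 gave 0.45 (SE, 0.19) and Tslp −0.50 (SE, 0.22). The leukocyte genes Ptprc, Emr1 and Itgam, 3 of 8 in their list, were higher in Gen-treated mice by limma (adjusted p = 0.0236–0.0367), 1 of them, Itgam, also with dim probes left out. Over all measured probes 5.02% passed, or 1.11% with dim probes left out. A dimmer Ptprc probe, above background on all 8 arrays, gave 0.73 (SE, 0.27; limma adjusted p = 0.114) with overlap. The other Emr1 probe, above background on 2 control arrays, gave 0.57 (SE, 0.24) with overlap. The other Itgam probe gave a log2 difference of 0.23 (SE, 0.28) with overlap. The sum of that list was 24298–36462 in controls and 36008–59388 in Gen-treated mice, with r = 0.35 with Slc18a2 and an adjusted p by exact permutation of 0.891. What these leukocytes contributed to any member's signal was not tested.

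The remaining lists held no measured gene with a limma adjusted p under 0.05. These were 1 measured basophil gene, 4 eosinophil, 2 melanocyte, 4 interstitial cell of Cajal and 5 smooth muscle genes, with 0 at an unadjusted p under 0.05 by limma or the methods' test, and 6 genes of oviduct epithelium, with 1 by either test (Krt8). The 4 genes of the interstitial cells of Cajal, which also carry Kit, each overlapped between the groups. Their sum did not, at 15830–17155 in controls and 18879–22898 in Gen-treated mice. It gave r = 0.68 with Slc18a2 and an adjusted p by exact permutation of 0.599. Ano1, the chloride channel that marks these cells, gave a log2 difference of 0.10 (SE, 0.14) and Thbs4 one of 1.05 (SE, 0.47). They ran opposite ways with Slc18a2 within groups, with r = −0.74 for Ano1, −0.39 for Etv1, 0.71 for Thbs4 and 0.88 for Gja1.

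**Figure D5:**
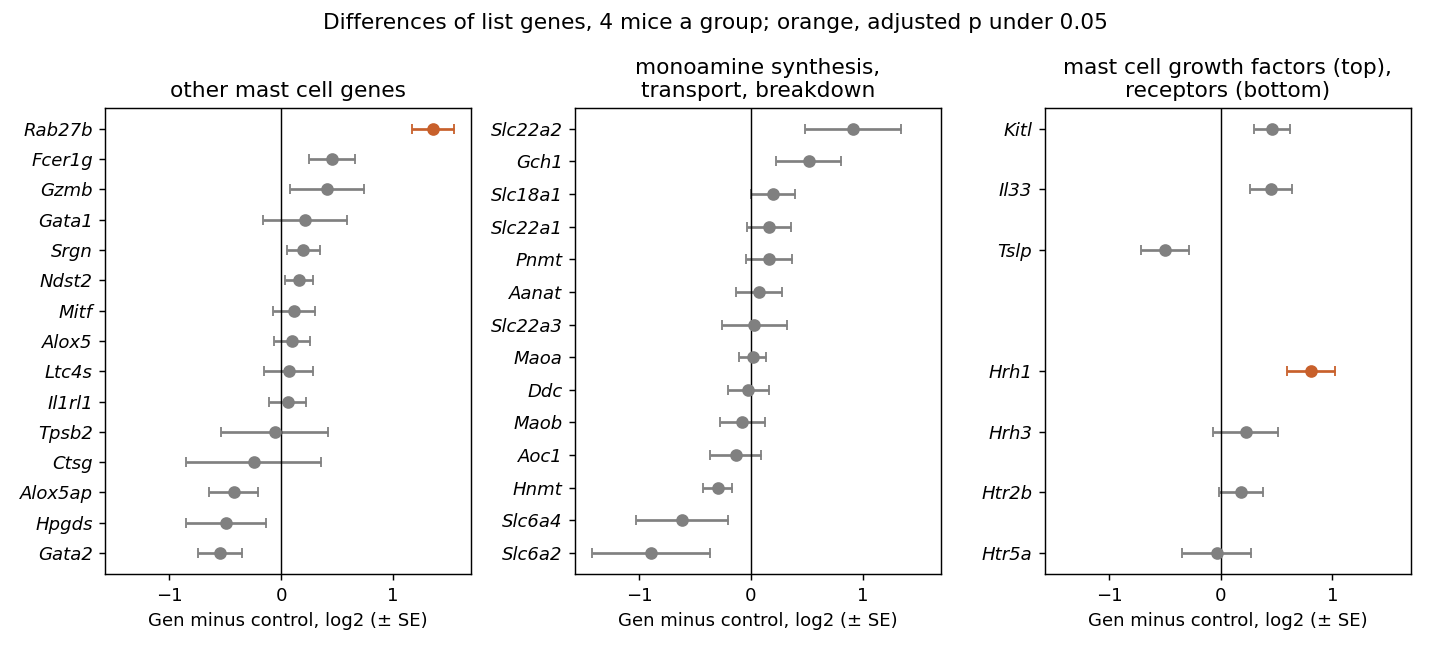
Gen minus control difference in log2 signal (x axis, ± SE, 4 mice a group) of 36 measured genes from the lists of other mast cell genes, monoamine genes, mast cell growth factors and receptors. Rab27b (1.36) and Hrh1 (0.81), in orange, had a limma adjusted p under 0.05, and the other 34 did not.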

How the data were processed

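Oviduct RNA of 4 control and 4 Gen-treated mice was measured on 1-colour Agilent arrays, and groups and replicate numbers came from the labels. The authors deposited 1 scanner table per array from Agilent Feature Extraction 9.5. Its processed signal, used here, is a linear intensity with background taken off inside the array and no scaling between arrays. The later steps of the study's methods in Rosetta Resolver were not applied, and the series-wide file of intensity values that the authors deposited was not used. Probe positions are those of the array files (mm7), and no genome of that build was used here, so exons are not given.

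Spots marked as outliers and 1639 control spots were left out, log2 signals were averaged over the spots of a probe, and each array was scaled to the same 75th percentile. The groups were compared with limma 3.58.1 (lmFit, eBayes; R 4.3.3) over 41173 probes with Benjamini-Hochberg adjustment, and 0.05 was the threshold. Where a gene had several probes, the brightest by mean log2 signal stands for it, and a signal given for a group is a mean on the log2 scale. Tables were handled with data.table (version 1.17.8) and plots drawn with matplotlib. Gene names came from RefSeq tables by accession (22951 probes) or by name or synonym (9768), and 8455 probes kept the name of the array files. Promoter windows are those of RefSeq (GRCm38.p6), and the motifs were chosen after the other results were known.

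The members and lists were chosen with earlier results of these data known. Named genes are the members, called list genes with at most 4 bright others per list, and the 5 most and 5 least like Slc18a2. The permutation tests within groups were added after the values were seen. The alternatives tried were no scaling, quantile normalization, dim probes left out, normexp (offset 50), the methods' t-test, a robust fit with an intensity trend, spots marked as outliers kept, replicate number as a block, averaging the probes of each gene, and each array left out in turn. The other Slc18a2 probe and the exclusion of control 2 with Gen 2 were added after the data were seen. Results for 2 single genes of these lists are not reported here. The steps were tested on simulated data. The study's abstract calls the controls littermates, but the labels tie no Gen replicate to a control replicate. The number of arrays limits the precision.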

Additional observations from a re-analysis of the deposited data

Results flagged for a closer look

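In 2 of 22 groups of 4 signals examined over the measured member probes, a mouse lay far from the other 3, where chance gives about 1 in 20 groups. The brighter Cma1 probe was at 2795 in control 2, against 850–1036 in the other controls. The brighter Mcpt4 probe was at 586 in control 2, against 168–205 in the other controls. Both values come from the same mouse.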

How the results depend on the processing

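The Slc18a2 difference stayed above 0 in 17 of 17 alternatives (log2 difference 2.38–3.72), Hdc stayed below 0 in all 16 (−0.82 to −0.48), and the median r of Slc18a2 with the 6 other members stayed below 0 (−0.63 to −0.02). Counts of calls were less stable. Of the 6674 probes called in all, 5782 were lower in Gen-treated mice and 892 were higher, and 1454 were measured probes. Against these 6674, quantile normalization called 178, no scaling 640, normexp 251, dim probes left out 321, the methods' t-test 0 and the replicate block 1. Each count is at a Benjamini-Hochberg adjusted p under 0.05. The study called array probes by analysis of variance at its own threshold, so its count was made otherwise than the t-test count. Leaving out 1 array gave 1–7130 probes called. Against 1 called gene among the other mast cell genes, quantile normalization, the t-test, the replicate block and averaging the probes of each gene gave 0, and leaving out 1 array gave 0–1. Against 1 called receptor gene, quantile normalization, no scaling, normexp, dim probes left out, the t-test and the replicate block gave 0, and leaving out 1 array gave 0–1. No monoamine gene was called in any of 17 alternatives. Without scaling the Cpa3 difference was 0.0139 and the Mcpt4 difference 0.16, above 0, and Fcer1a was at −0.052 with normexp. Leaving out 1 array gave −0.50 to 0.18 for Cpa3 and −0.31 to 0.34 for Mcpt4, above 0 without control 2 (0.18 and 0.34) or Gen 1 (0.04 and 0.30), and Mcpt4 was at 0.11 without both mice numbered 2. The causes were not tested. Correlations of same-numbered mice lay between −0.18 and 0.11. With replicate number as a block, the SE was 0.17 for Cpa3 and 0.19 for Cma1, against 0.49 for each without it. It was also smaller for Mcpt4 (0.37), and larger for Tph1 (0.60) and Kit (0.23). Whether same-numbered mice were littermates cannot be told from the labels. Genes not well above background have no measured difference.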
